A study of Oryza sativa with 8 samples.

Results

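Some probe sets differed between the rice lines M202 and M202(Sub1) whether or not the plants had been under water, and these constitutive differences are described here. A probe set is a group of short probes that reads 1 transcript or a few related ones. The probe sets were selected on their log2 signal: the group means of M202(Sub1) and M202 had to differ by at least 2, a fold of 4, in the same direction in non-submerged and in submerged plants. Of 57258 non-control probe sets 131 met this rule, 29 of them higher and 102 lower in M202(Sub1). The genotype differences that chose them are given as a description, with no test.

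M202 is a japonica cultivar, and its samples are labelled as without Sub1A. M202(Sub1) is the M202 line into which the SUB1 region was introgressed, and its samples are labelled as with Sub1A. Plants of both lines grew in soil in a greenhouse at 25 per pot, and every sample is labelled 14 d old. Non-submerged plants were taken at day 0, and submerged plants after 24 h completely under deionized water, at day 1, so that a day of time goes with submergence. Aerial tissue was hybridised to 8 Affymetrix rice arrays, 2 for each of the 4 groups of line and condition. The replicates are labelled biological with no word on what separated them, so p-values measure only the spread between these samples, which may be partly technical. Each genotype is represented by 1 line.

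As background, SUB1 is a locus on chromosome 9 with genes for ERF-type transcription factors, and Sub1A at this locus restrains growth and sugar use under water. An introgression line comes from crossing a donor to a recipient and backcrossing, and it can keep donor chromosome beside the chosen locus or elsewhere. In such a stretch a gene may be absent, may be transcribed at another level, or may differ in sequence from the probes, which were designed largely on japonica rice. A lower signal in M202(Sub1) can therefore stand for less transcript or for a poorer match of the probes, and in a single probe set these cannot be told apart. Probe mismatch and donor segments were not measured, and their part in the differences was not tested.

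The deposited log2 signals ran from 2.22, a floor common to the arrays, to 16.93. Between 49.8% and 50.5% of the values of an array lay within 0.1 of that floor. Read depth does not apply to arrays, and the small number of arrays limits the precision. Of 10 green leaf markers 8 were matched, with group means of 4.09 to 16.59 and sums of 99.7 to 108.5 over the 4 groups, the lower sums in submerged plants. Of 6 root markers 4 were matched. LSI2, a root silicon transporter, was at the floor in all groups, while LSI1, a root silicon channel, had 9.50 to 10.18. The other matched root markers were also above the floor, IRT1 with group means of 5.80 to 6.95 and PHO1-2 with 5.89 to 7.48. The root sum was 26.6 in both non-submerged groups, 25.8 in submerged M202 and 23.4 in submerged M202(Sub1), and its part in the differences was not tested.

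A threshold on the difference fixes how it compares with the spread between arrays, so the spread is only described. The median SD of a pair of arrays was 0.121 for the higher and 0.105 for the lower probe sets, with maxima of 1.21 and 1.4. The widest was that of LOC4340040 in submerged M202(Sub1), with 2.61 and 4.59, where the lines differed by -2.74. The arrays of the lines did not overlap in either condition for 29 of 29 higher and 102 of 102 lower probe sets, where 2.96% and 3.81% of all probe sets were separated in this way. The rule used the same arrays, so nothing is read from these counts. The smallest gap between arrays of the lines within a condition was 1.82 among the higher and 1.15 among the lower probe sets.

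In non-submerged plants alone 42 probe sets (0.0734%) were higher by at least 2 in M202(Sub1), and in submerged plants 143 (0.250%). The 29 that were higher in both (0.0506%) made up 69.0% of the former and 20.3% of the latter. In the lower direction 140 probe sets (0.245%) passed in non-submerged and 190 (0.332%) in submerged plants, and the 102 in both (0.178%) made up 72.9% and 53.7%. Most probe sets that were this far apart before submergence were so after it as well.

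**Figure D1:**
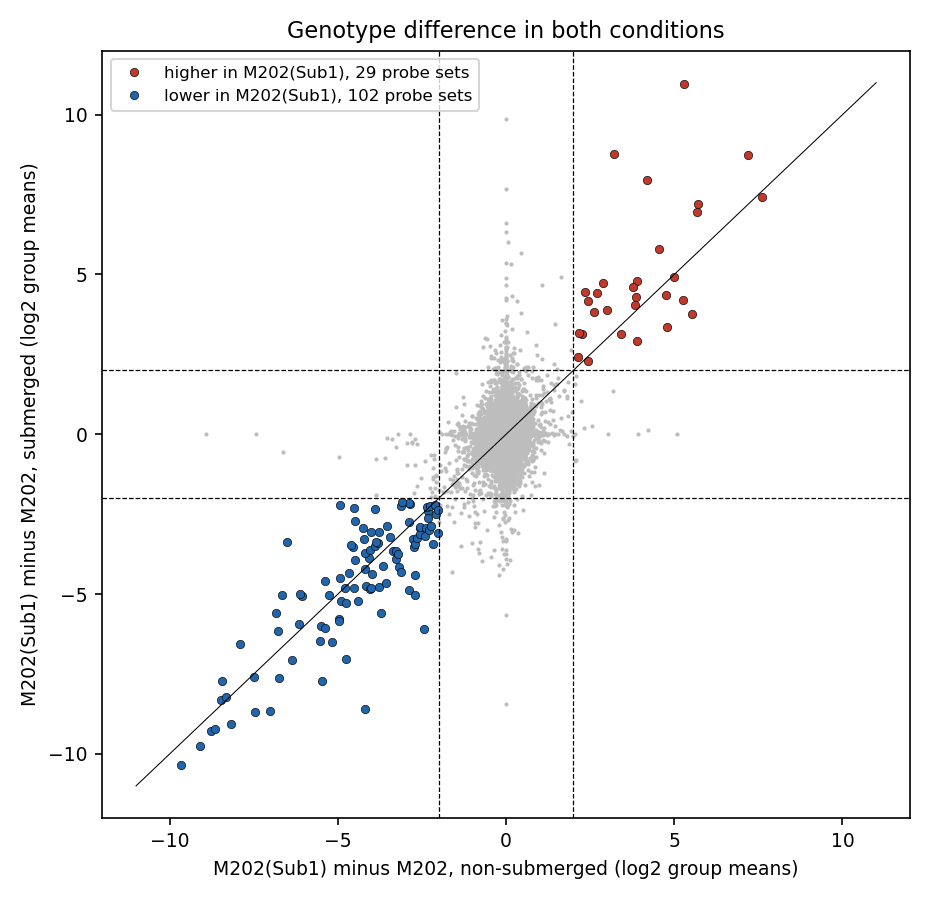
M202(Sub1) minus M202 in log2 group means of 2 arrays, in non-submerged plants (x axis) and submerged plants (y axis), for all non-control probe sets. Dashed lines mark differences of 2 in size and the solid line equal differences. The 29 higher probe sets (red) and the 102 lower ones (blue) lie in opposite corners, and the lower ones reach -9.66 and -10.36.

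Among the higher probe sets the median difference was 3.88 in non-submerged and 4.36 in submerged plants. Their median level was 2.88 and 3.01 in M202, near the floor, and 7.49 and 7.52 in M202(Sub1). In M202, 13 of 29 were below 3 in both conditions, and 3 of these were within 0.1 of the common floor. The size of a difference against such a level is limited by the floor. Only 2 of the 29 were above 10 in M202(Sub1) in both conditions, OsAffx.19629.1.S1_at and Os.18503.1.S1_s_at.

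OsAffx.19629.1.S1_at, for which no gene is listed, had the largest difference that held in both conditions among the higher probe sets. It gave 2.88 and 2.88 in non-submerged and 3.32 and 2.73 in submerged M202. It gave 10.50 and 10.46 without submergence and 10.40 and 10.48 with it in M202(Sub1), so that the differences were 7.60 and 7.41. The lines were far apart, and within each line the conditions were close.

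LOC4327118 on chromosome 1, read by Os.15983.1.S1_at, gave the same low value of 2.28 on all 4 M202 arrays. It gave 9.51 and 9.41 without submergence and 11.09 and 10.95 with it in M202(Sub1). Every M202(Sub1) array was therefore high, and the submerged ones were the higher pair.

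LOC4344943 on chromosome 8 was read by 2 of the higher probe sets, which share a target and are not separate evidence. Os.52305.1.S1_at gave 2.72 on all 4 M202 arrays. It gave 8.26 and 7.72 without submergence and 13.69 and 13.64 with it in M202(Sub1), and the differences were 5.28 and 10.95. Os.52305.2.S1_x_at differed by 3.21 and 8.77. On both probe sets the lines were further apart in submerged plants.

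LOC4346960 on chromosome 9, listed as a long non-coding RNA gene, was well above the floor in non-submerged M202 too. Os.18503.1.S1_s_at gave 7.03 and 7.11 in non-submerged and 3.94 and 3.49 in submerged M202. It gave 11.30 and 11.20 without submergence and 11.64 and 11.69 with it in M202(Sub1). The M202(Sub1) arrays were all above 11, and the M202 arrays were near 7 before and below 4 after submergence. Os.18503.1.S1_at, of the same design cluster but with no gene listed, differed by 4.55 and 5.80.

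The other higher probe sets among the 10 with the largest difference in both conditions were below 5 on every M202 array. OsAffx.30872.1.S1_s_at differed by 5.69 and 7.20 and Os.26897.1.S1_at by 5.69 and 6.97. OsAffx.14773.1.S1_at differed by 4.98 and 4.91 and Os.25164.1.A1_at by 5.25 and 4.19. None of these 4 has a listed gene, so no role is given.

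Among the lower probe sets the median difference was -4.05 in non-submerged and -4.18 in submerged plants. Their median level was 7.81 and 7.95 in M202 and 3.12 and 2.94 in M202(Sub1). Strong signals in M202 were among them, with 14 of 102 above 10 in both conditions. In M202(Sub1) 42 of 102 were below 3 in both conditions and 13 were within 0.1 of the common floor in both. At the other end, 14 of the 102 were above 5 in M202(Sub1) in both conditions and so were still measured there.

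Os.18487.1.S1_at, with no gene listed, had the largest difference that held in both conditions. It gave 12.18 and 12.08 in non-submerged and 12.83 and 12.72 in submerged M202. It gave 2.47 and 2.47 without submergence and 2.27 and 2.56 with it in M202(Sub1), and the differences were -9.66 and -10.36. All M202 arrays were above 12 and all M202(Sub1) arrays were below 3.

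Os.18410.1.S1_at showed the same pattern, with 11.67 and 11.83 in non-submerged and 12.26 and 12.63 in submerged M202. It gave 2.64 and 2.64 without submergence and 2.75 and 2.64 with it in M202(Sub1). Of the 10 lower probe sets with the largest difference in both conditions, 8 have no listed gene. Besides these, Os.46754.1.S1_at differed by -8.79 and -9.28, Os.14617.1.S1_at by -8.65 and -9.22 and Os.18480.1.S1_at by -8.48 and -8.31. Os.4449.1.S1_at differed by -8.33 and -8.21, Os.52396.1.S1_at by -8.17 and -9.05 and Os.54340.1.S1_at by -7.46 and -8.68.

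The other two have a gene. LOC4339940 on chromosome 6 gave 11.82 and 11.66 in non-submerged and 10.47 and 10.17 in submerged M202. It gave 3.29 and 3.29 without submergence and 2.61 and 2.61 with it in M202(Sub1). LOC9266439 on chromosome 12 was read by Os.18939.1.S1_s_at, which was between 9.66 and 9.95 on the M202 arrays and at 2.22 to 2.32 on those of M202(Sub1). Its other probe set, Os.52319.1.S1_x_at, was also among the lower ones, with -3.86 and -3.37.

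**Figure D2:**
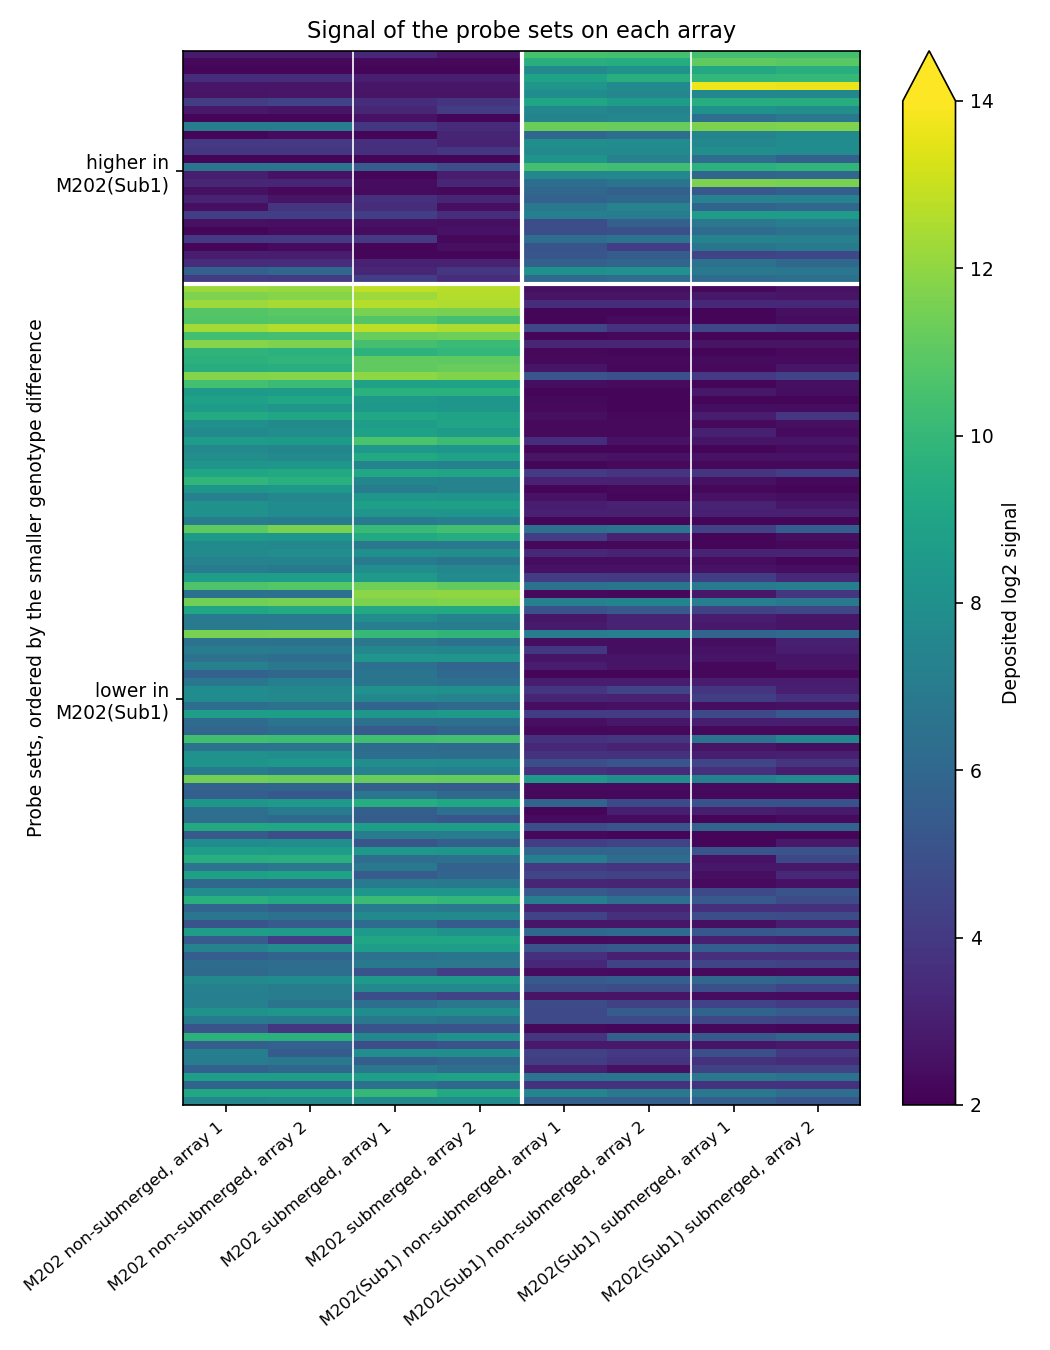
Deposited log2 signal (colour) of the 29 higher and 102 lower probe sets on the 8 arrays (columns). Within each block the probe sets run from the largest to the smallest difference that held in both conditions. The colour changes between the lines, as the rule requires. It mostly changes less between non-submerged and submerged arrays of 1 line, but not for every probe set. LOC4340040 changed with submergence by -3.24 in M202 and -3.09 in M202(Sub1), where the lines differed by -2.89 and -2.74.

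Values near the threshold lay close together on its sides, more so in the lower direction. In the lower direction the 3 probe sets just inside had a smaller difference, of both conditions, of 2.025 (LOC4349862), 2.028 (LOC9268343) and 2.081 (LOC4346816) in size. The 3 just outside had 1.998 (LOC4351805), 1.968 (LOC4342619) and 1.951 (LOC4339922). In the higher direction the 3 just inside had 2.129 (LOC4346812), 2.164 (LOC4346699) and 2.258 (LOC4331468). The 3 just outside had 1.927 (LOC4351341), 1.83 (LOC4351929) and 1.628 (Os.50231.1.S1_x_at).

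The rule did not use the place of a gene, and the places were uneven. Of the 131 probe sets 57 are listed with exactly 1 gene, 1 with several and 73 with none. The 57 stand for 53 genes. Chromosomes 6, 9, 11 and 12, singled out after the counts were seen, held 49 of the 57 (86.0%) but 23.0% of the 22436 probe sets listed with 1 gene. The share of probe sets that were chosen was 0.949% on these chromosomes and 0.046% on the others, where 8 lay.

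Chromosome 12 had 19 (2 higher and 17 lower), chromosome 9 had 15 (6 higher and 9 lower) and chromosome 11 had 9 (1 higher and 8 lower). Chromosome 6 had 6, all lower. Chromosomes 2, 4, 5 and 10 had 0 of 2609, 1939, 1859 and 1167 probe sets. Chromosome 1 had 3, chromosomes 3 and 8 had 2 each and chromosome 7 had 1.

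Some of the genes lay near one another. In the gene order of the RefSeq table, 28 of the 53 had another of them within 20 annotated genes, and 8 were direct neighbours of another. No matching count was made for other genes, so these counts are not read as clustering beyond the uneven chromosomes. On chromosome 9 they lay between genes 1931 and 2429 of 3664, and on chromosome 6 between genes 59 and 250 of 3022. On chromosome 11 they lay between genes 22 and 677 of 2834, and on chromosome 12 between genes 471 and 1737 of 2326. This order is that of the assembly ASM3414082v1, which may differ from the genome of either line.

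**Figure D3:**
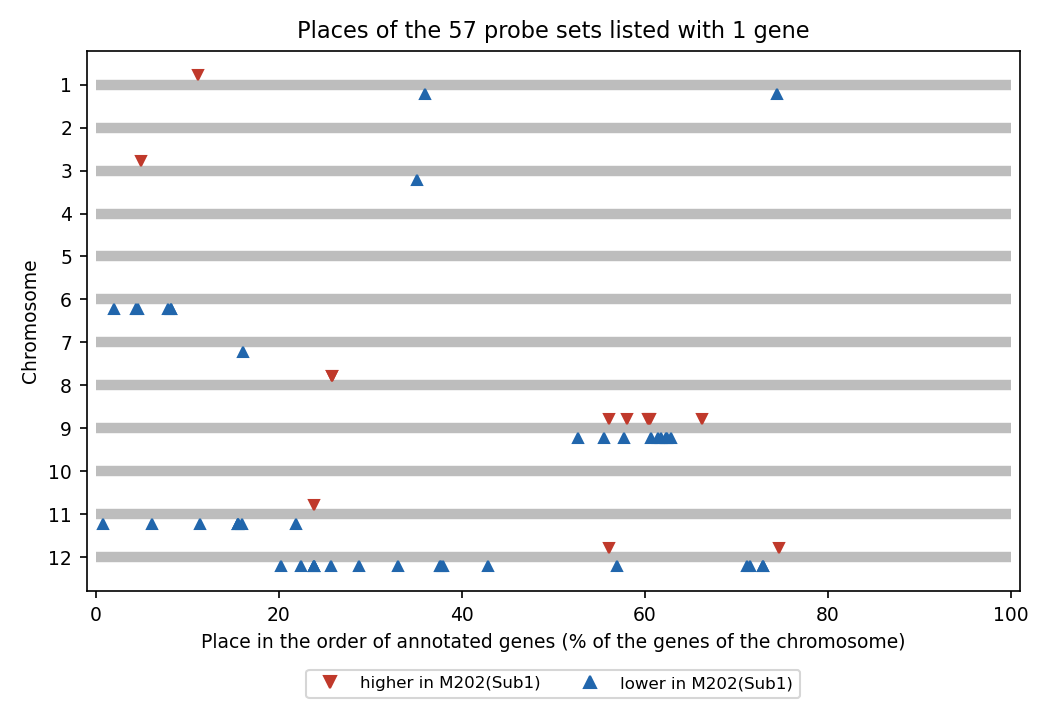
Places of the 57 probe sets listed with 1 gene, as a percentage of the annotated genes of each chromosome (x axis), for each chromosome (y axis). Red triangles are higher and blue triangles lower in M202(Sub1). The 15 on chromosome 9 share 13.6% of the gene order and hold both kinds, and the 6 on chromosome 6 share 6.4% and are all lower.

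Most other probe sets in these stretches differed little, counted at any signal level. Those at the floor in both lines cannot show a difference, and they were not set aside. On chromosome 9, 191 others lay between the first and the last of the 15, and 83.8% of them differed between the lines by less than 1 in both conditions. Their median difference was -0.005 in non-submerged and 0 in submerged plants. This share was 87.7% of 527 on chromosome 12, 87.8% of 296 on chromosome 11 and 87.3% of 142 on chromosome 6. Between the outermost chosen genes of chromosomes 1 and 3 it was 96.7% of 2090 and 96.3% of 983. Because probe sets without a signal are included, these shares do not show how many of the measured neighbours were unchanged.

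Chromosome 9, which carries SUB1, held 6 of the 13 higher probe sets with a place. In gene order, LOC9268343 came first and was still well measured in M202(Sub1). It gave 9.16 and 9.19 in non-submerged and 9.98 and 9.29 in submerged M202 and 7.49 and 6.81 without submergence and 6.82 and 6.30 with it in M202(Sub1). Next, LOC4346690 was lower, by -3.18 and -4.15, with 2.27 on all 4 M202(Sub1) arrays, and LOC4346699, within 20 genes of it, was higher by 2.16 and 3.17. LOC4346741 was lower, by -2.17 and -3.45, and LOC9272502, also within 20 genes of it, was higher by 2.35 and 4.44. The chosen probe sets of neighbours thus differed in opposite directions, which was not shown for the whole transcripts. For LOC4346741 the SD of the non-submerged M202 arrays was 1.20. Its other probe set, Os.12327.1.S1_x_at, had group means of 6.1 to 7.0 and differed by only -0.90 and -0.14. The other probe set of LOC4346699, Os.5177.1.S1_s_at, had low group means of 2.23 to 3.18 and differed by 0.94 and 0.08.

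A group of 4 genes followed. LOC4346807 gave 2.83 and 2.66 in non-submerged and 3.28 and 4.07 in submerged M202 and 7.61 and 7.37 without submergence and 8.13 and 7.94 with it in M202(Sub1). Its direct neighbour LOC4346808 was also higher, by 2.44 and 4.17. LOC4346812, known as HATB, a type B histone acetyltransferase, which acts on newly made histones, was higher by 2.13 and 2.43. LOC4346816 was lower, by -2.08 and -2.48, and gave 3.76 on all 4 M202(Sub1) arrays.

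The next group on chromosome 9 held 5 genes, and their chosen probe sets were all lower. LOC4346832 differed by -5.46 and -7.72. LOC4346837 gave 6.48 and 6.46 in non-submerged and 11.89 and 12.002 in submerged M202. It gave 2.29 and 2.27 without submergence and 2.77 and 3.92 with it in M202(Sub1), so that the lines were -4.19 and -8.61 apart. The submerged M202 arrays stood far above all others.

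LOC4346851 in that group is known as VDAC1, a voltage-dependent anion channel of the outer mitochondrial membrane. Its probe set Os.39720.1.A1_x_at gave 8.72 and 8.71 in non-submerged and 8.45 and 7.79 in submerged M202 and 4.08 and 4.04 without submergence and 4.22 and 3.36 with it in M202(Sub1). LOC4346856 gave 10.42 and 10.19 in non-submerged and 8.85 and 8.96 in submerged M202, against 2.22 to 2.47 on the M202(Sub1) arrays. LOC4346874 differed by -2.73 and -3.52 on Os.49560.1.S2_at. Its other probe set, Os.49560.1.S1_at, had a signal in all groups and differed by -1.59 and -0.19. LOC4346960, described above, was the last of the stretch.

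On chromosome 12 the groups of neighbours were lower throughout. LOC4351668 was read by Os.7655.1.S1_a_at at 10.35 and 10.26 in non-submerged and 10.37 and 10.40 in submerged M202. It gave 3.72 and 3.85 without submergence and 6.50 and 7.53 with it in M202(Sub1). Its other probe set, Os.7655.1.S2_at, differed by -4.04 and -3.63 and was at 2.89 to 2.91 in M202(Sub1), where its 4 arrays were nearly equal. The direct neighbour LOC4351669 differed by -4.23 and -3.29. In another group LOC4351893 differed by -6.05 and -5.05, LOC4351897 by -6.15 and -5.95 and LOC9272184 by -4.96 and -5.83.

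On chromosome 11 a group of 3 genes was lower. Both probe sets of LOC4349852 were chosen and gave nearly the same differences, -4.61 and -3.45 on Os.17131.1.S1_at and -4.54 and -3.54 on Os.17131.1.S1_x_at. LOC4349853, its direct neighbour, differed by -2.26 and -2.23 and LOC4349862 by -2.02 and -2.37. On chromosome 6, LOC4340029 differed by -2.70 and -3.43, LOC4340039 by -4.25 and -2.92 and its direct neighbour LOC4340040 by -2.89 and -2.74.

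Outside these 4 chromosomes the only gene with a name was NAS1 (LOC4332608) on chromosome 3, a nicotianamine synthase, whose product binds iron and other metals. It gave 7.85 and 7.90 in non-submerged and 5.16 and 5.63 in submerged M202. It gave 4.20 and 4.45 without submergence and 2.22 and 2.81 with it in M202(Sub1). NAS1 was lower in M202(Sub1) in both conditions, and lower in submerged plants of both lines.

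Other probe sets listed with the same gene are set beside the chosen ones, and where they lie along the gene was not examined. Those not chosen had failed the rule, so their smaller differences follow in part from it. No share over all probe sets stands beside the counts. Of the lower probe sets 14 share their gene with another probe set, and of the higher ones 5. Beside the lower ones there were 13 probe sets that were not chosen, of which 1 was lower by at least 1 in both conditions and 9 differed by less than 1 in both. Of these 9, 4 were below 3 in all groups and carry no measurement, and 5 had a signal. Beside the higher ones there were 5 that were not chosen. All 5 differed by less than 1 in both conditions, and 1 of them was below 3 in all groups.

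VDAC1 shows such a split. Os.39720.1.A1_x_at differed by -4.66 and -4.33. Os.3441.1.S1_s_at had means, without and with submergence, of 10.57 and 10.29 in M202 and 10.53 and 9.50 in M202(Sub1), and differed by -0.04 and -0.79. Os.3441.1.S1_at differed by -0.70 and -2.03.

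LOC4351694 on chromosome 12 was lower on Os.40347.1.A1_x_at, by -4.77 and -5.27. OsAffx.27508.126.S1_x_at, listed with the same gene, had 15.28 and 15.13 in M202 and 15.26 and 14.88 in M202(Sub1), a difference of -0.02 and -0.24. Os.12313.1.S1_at, also of this gene, had 15.56 and 14.66 in M202 and 15.26 and 13.30 in M202(Sub1), and differed by -0.30 and -1.36, by more than 1 only in submerged plants. LOC4327551 on chromosome 1 was lower by -4.20 and -3.71 on Os.5596.1.S1_at and differed by 0.02 and -0.49 on OsAffx.23851.1.S1_s_at. For LOC4339876 on chromosome 6 the chosen probe set differed by -3.27 and -3.67, Os.9332.2.S1_at by -2.11 and -1.69 and Os.9332.1.S1_at by 0.27 and -0.19.

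In the higher direction, LOC4331468 on chromosome 3 differed by 2.26 and 3.14 on Os.6976.1.S1_s_at and by -0.15 and -0.06 on Os.26406.1.S1_at. For LOC4346832, LOC4349759 and LOC4350023, chosen with -5.46 and -7.72, -6.13 and -4.999 and 3.88 and 4.31, the other probe sets were below 3 in all groups and so do not bear on the difference. A probe set whose name ends in _s_at or _x_at can read more than 1 transcript, and the pairing with genes is that of the platform annotation. For LOC4349852, LOC4351668, LOC9266439 and LOC4344943 both probe sets were chosen in the same direction. Where the probe sets of a gene differ, the level of the whole transcript was not shown to differ between the lines.

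**Figure D4:**
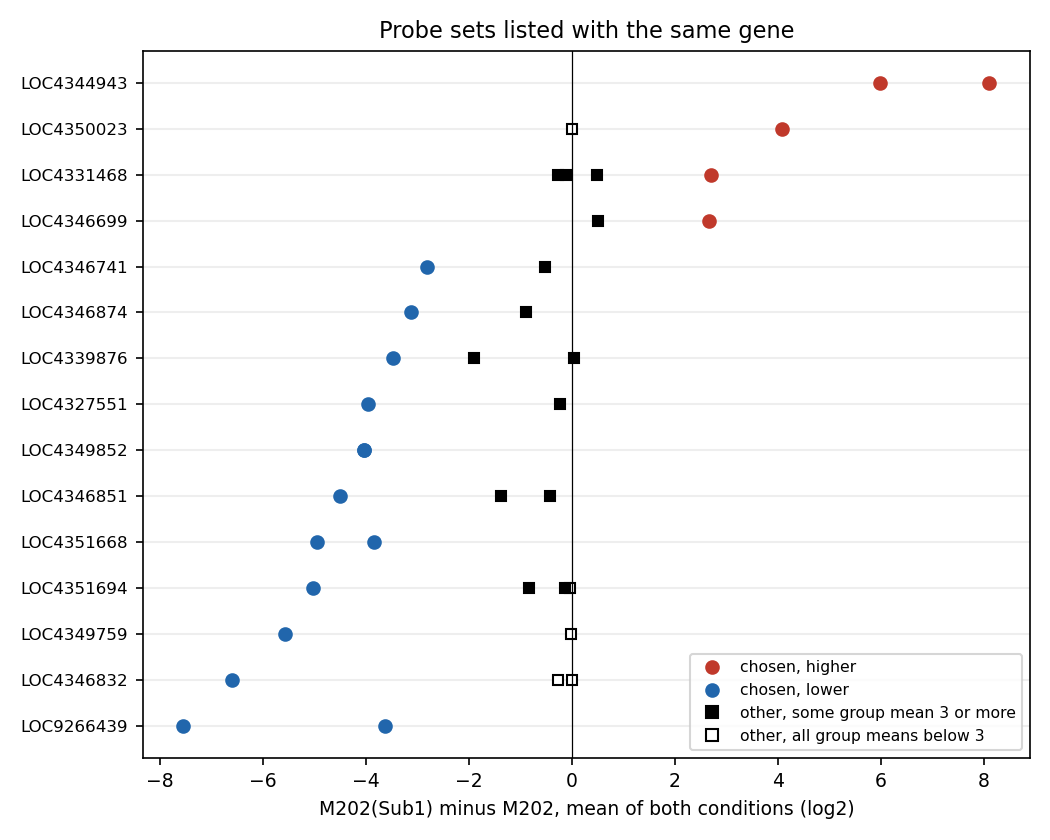
M202(Sub1) minus M202 on the log2 scale, as the mean of both conditions (x axis), for the 15 genes (y axis) with a chosen probe set and at least 1 more. Circles are chosen probe sets, filled squares are others with a group mean of 3 or more, and open squares are others below 3 in all groups. Most squares lie nearer to 0 than the circles, which follows in part from the rule that chose the circles. There are 4 genes with 2 circles, which coincide for LOC4349852.

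The kinds of probe set are best set beside those of probe sets with a signal, since 69.6% of the lower and 58.6% of the higher ones had a mean above 5 but 35.1% of all. Of the lower ones 91.2% and of the higher ones 72.4% had a name that starts with Os, against 55.5% of all probe sets and 88.4% of those with a mean above 5 over the 8 arrays. The others had the prefix OsAffx. The ending _x_at was carried by 17.6% of the lower and 13.8% of the higher ones, against 12.5% of all and 14.0% of those above 5. The ending _s_at was carried by 4.9% and 13.8%, against 4.9% and 8.2%. These shares are descriptions, with no test.

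Submergence was examined as the measure that the rule did not use. The submergence average is the mean, over both lines, of submerged minus non-submerged, and its estimate is orthogonal to the genotype differences. Of the 29 higher probe sets 11 rose, 6 fell and 12 were not called at an adjusted p below 0.05 (limma over 34355 probe sets). Of the 102 lower ones 26 rose, 28 fell and 48 were not called. Over all probe sets tested 53.9% were called, 29.8% as higher and 24.0% as lower. Among the higher ones 58.6% were called, and 52.9% among the lower. How these shares stand to the background depends on the filter and the scale, so nothing is read from them. With no filter on low values they were 44.8% and 41.2% against 29.7% over all, and with the filter at the 60th percentile 65.5% and 56.4%, the latter of 101, against 77.3%. With each array centred on the poly(A) spike-ins, which are control transcripts added to the RNA, they were 75.9% and 59.8% against 82.5%. All 131 passed the filter used for the counts, which a probe set that is high in 1 line readily does. The median submergence average was 0 among the higher ones, 0.05 among the lower ones and 0 over all, and the median of its size was 0.75, 0.42 and 0.31.

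The balance of directions depends on the scale. After the centring on the spike-ins, 9 of the higher probe sets rose and 13 fell, and 14 of the lower ones rose and 47 fell. Over all probe sets tested this gave 7077 higher and 21259 lower, against 10249 and 8254 as deposited. That centring shifted the submergence average by -0.30 and the genotype difference by -0.04 in non-submerged and -0.25 in submerged plants. With centring on the 75th percentile 11 of the higher ones rose and 9 fell, 26 of the lower ones rose and 31 fell, and over all 9447 were higher and 11320 lower. Each probe set named below as risen or fallen kept its call and direction under both centrings, which does not cover leaving out arrays. Of all chosen probe sets named by rule, 5 lost and 10 gained a call with the spike-in centring, in the same direction. The direction of 3 more changed. Some of the largest averages of the higher probe sets are not listed below (log2 ± SE). These are Os.52305.2.S1_x_at with 2.35 ± 0.21, OsAffx.19702.1.S1_at with 0.90 ± 0.26 and Os.24985.1.A1_at with -0.88 ± 0.24.

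A line at the floor adds nothing to the average, so the change within each line is given beside it. The SE rests on 1 spread shared by all 4 groups, so a line with equal arrays also makes the SE and p smaller. On Os.52305.1.S1_at the SD was 0 in both M202 groups, and 0.38 without and 0.04 with submergence in M202(Sub1). For probe sets that are flat in 1 line, the SE and p may therefore be too small. LOC4346837 rose by 3.27 ± 0.26 (log2 ± SE, 2 arrays per group, limma adjusted p = 0.000245), with 5.48 in M202 and 1.06 in M202(Sub1). LOC4344943 rose by 2.84 ± 0.12 on Os.52305.1.S1_at (limma adjusted p = 2.56e-05), with 0 in M202 and 5.67 in M202(Sub1). Os.26896.1.A1_at, with no gene listed, rose by 2.47 ± 0.29 (limma adjusted p = 0.00121), with 4.29 in M202 and 0.65 in M202(Sub1).

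Smaller rises followed. Os.7655.1.S1_a_at of LOC4351668 rose by 1.66 ± 0.23 (limma adjusted p = 0.00237), with 0.08 in M202 and 3.24 in M202(Sub1), but the other probe set of this gene was not called, at -0.21 ± 0.12 (limma adjusted p = 0.223). Os.39505.1.S1_at rose by 1.15 ± 0.16, with 0.66 in M202 and 1.63 in M202(Sub1). LOC9272502 on chromosome 9 rose by 1.13 ± 0.23, with 0.09 in M202 and 2.18 in M202(Sub1). The M202 arrays of that gene were all near the floor. Os.16958.1.S1_at rose by 1.00 ± 0.16, with 0.57 in M202 and 1.44 in M202(Sub1). Os.50499.1.S2_at rose by 0.98 ± 0.11, with 1.96 in M202 and 0 in M202(Sub1), where all arrays were near the floor.

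The largest fall was that of LOC4340040 on chromosome 6, which fell by 3.17 ± 0.50 (limma adjusted p = 0.00373), with -3.24 in M202 and -3.09 in M202(Sub1). LOC4351985 on chromosome 12 fell by 2.34 ± 0.23 (limma adjusted p = 0.000619), with -3.22 in M202 and -1.46 in M202(Sub1). NAS1 (LOC4332608) fell by 2.15 ± 0.18 (limma adjusted p = 0.000314), with -2.48 in M202 and -1.81 in M202(Sub1). The submerged mean was the lower one in both lines for all 3. Os.7163.1.S1_at fell by 1.51 ± 0.11, with -2.33 in M202 and -0.69 in M202(Sub1). Os.7004.1.S1_at fell by 1.41 ± 0.07, with -1.68 in M202 and -1.13 in M202(Sub1).

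Among the higher probe sets, LOC4346699 on chromosome 9 fell by 1.78 ± 0.16 (limma adjusted p = 0.000447), with -2.28 in M202 and -1.28 in M202(Sub1). LOC4346960 fell by 1.47 ± 0.11 on average (limma adjusted p = 0.00017), with -3.35 in M202 and 0.42 in M202(Sub1), and the difference between these changes was not tested because its parts chose the probe set. Os.51813.1.S1_at fell by 1.05 ± 0.16, with -1.48 in M202 and -0.62 in M202(Sub1). Os.27589.1.S1_at fell by 0.95 ± 0.18, with -0.24 in M202 and -1.67 in M202(Sub1).

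**Figure D5:**
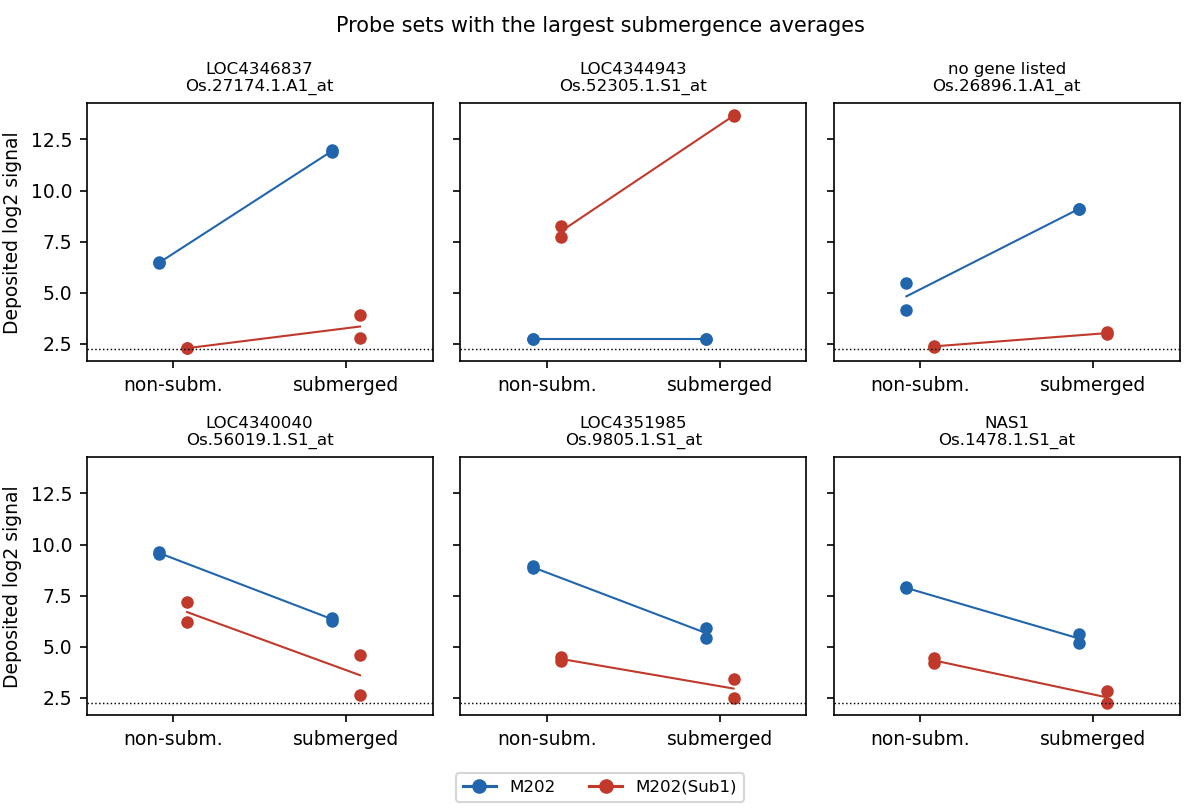
Deposited log2 signal on each array (points) and group means (joined by lines) for the 3 probe sets with the largest rise and the 3 with the largest fall in the submergence average, in M202 (blue) and M202(Sub1) (red). The dotted line is the common floor of 2.22. The lines stay apart in both conditions, and LOC4344943 gave the same value on all 4 M202 arrays.

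The genotype difference was not equally wide in both conditions for every probe set. Among the higher ones 13 of 29 were wider by at least 1 under submergence and 3 were narrower. Among the lower ones 16 of 102 were wider and 13 narrower by at least 1. These counts are made of the values that chose the probe sets and carry no test.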

How the data were processed

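The authors deposited log2 signals for each probe set on each array. GCRMA and MAS5 are named without a role, per the submitters' processing notes, and the joint normalization of the 8 arrays is not given in the sources. Values were used as deposited, after 123 control probe sets were set aside. Genes come from the platform annotation, which lists 22436 probe sets with exactly 1 gene, 95 with several and 34727 with none. All 22436 matched the RefSeq gene table of ASM3414082v1, which gave chromosome and gene order, and no coordinates are used. The names NAS1, VDAC1 and HATB are synonyms in that table, and other genes carry LOC numbers with no role given. 1 probe set is not reported here.

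The submergence average was fitted with limma 3.58.1 in R 4.3.3 (lmFit, eBayes with an intensity trend, 1 coefficient per group). Probe sets entered if their mean across all arrays reached the 40th percentile, 2.23, which left 34355. The residual degrees of freedom were 4, with 0.99 more from the prior. P-values were adjusted by Benjamini-Hochberg over all of these. The fit was tested on simulated data. Exact permutation was not used. Within 1 line, 2 arrays in each of 2 groups allow no two-sided p under 0.333. The least p for the average over both lines was not worked out. Tables were made with Python 3.11.15 and pandas 2.3.3, and figures with matplotlib 3.10.9.

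The members, lists and tests were chosen with earlier results of these data known. Named in each direction were the 10 probe sets with the largest difference in both conditions, up to 5 called with the largest submergence average each way, and 3 on each side of the threshold. Also named were genes with a name, genes on chromosome 9, groups of at least 3 neighbouring probe sets, and the 5 widest and 5 narrowest gaps between probe sets of a gene. Os.4449.1.S1_a_at, LOC4339876, LOC4327551 and the probe sets set beside chosen ones were named after their values were seen. Alternatives were other thresholds, centring, filters, no trend, a replicate block and leaving out each array. The planned description of promoter motifs was not run, and no sequences were used.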

Additional observations from a re-analysis of the deposited data

How the results depend on the processing

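The number of probe sets follows the threshold. With a least difference of 1 there were 64 higher and 174 lower ones, and with 3 there were 19 and 67. Leaving out 1 array at a time gave 28 to 30 and 99 to 104. Requiring every array to lie at least 2 away gave 26 and 87. Requiring all 4 group means to be at least 0.1 above the common floor gave 20 and 81. Os.52305.1.S1_at, with 2.72 on all 4 M202 arrays, passed this, so passing does not show a measured signal in both lines. Centring on the poly(A) spike-ins gave 29 and 108. For submergence, that centring raised the calls over all probe sets from 18503 to 28336, with the shift of scale given above. Leaving out 1 array gave 17758 to 18772 calls over all, 12 to 17 among the higher and 41 to 48 among the lower probe sets. With no filter there were 17034, 13 and 42. Centring on the spike-ins turned the submergence average of Os.18503.1.S1_at from 0.005 to -0.296, that of Os.18487.1.S1_at from 0.296 to -0.005 and that of Os.46754.1.S1_at from 0.036 to -0.264. That of Os.52715.1.S1_at (0.005) ran from -0.424 without replicate 1 of submerged M202 to 0.433 without replicate 2. Signals at the floor and 2 arrays per group limit the size and precision of these differences.

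Groups share replicate numbers, but the labels tie them to no common day or batch. The replicate differences correlated at 0.008 to 0.178 over 6 pairs of groups, with 1 over 0.1, so the samples were not treated as paired. With the replicate block 18304 probe sets were called over all, 16 among the higher and 53 among the lower ones.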

Other observations

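A wider set, with differences of at least 1 in the same direction in both conditions, contains the probe sets described above and is no independent support. Among probe sets listed with 1 gene it held 34 on chromosome 12, 25 on chromosome 9, 20 on chromosome 11 and 17 on chromosome 6. Chromosome 7 had 8, chromosome 1 had 6, chromosome 3 had 3, chromosome 8 had 2 and chromosome 2 had 1, and chromosomes 4, 5 and 10 had 0. This was 2.97% of the probe sets of chromosome 12, 2.11% of those of chromosome 9, 1.87% of those of chromosome 11, 0.96% of those of chromosome 6 and 0.46% of those of chromosome 7.

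Among the chosen probe sets, equal values on both arrays of a group were more frequent in the line with the lower signal than in the other line. Within 0.005, the arrays of at least 1 condition were equal for 13 of 29 higher probe sets in M202 and for 36 of 102 lower ones in M202(Sub1). In the line with the higher signal this was so for 1 and 2. No matching share was counted over all probe sets or over those at a similarly low level. Whether equal values are more common among the chosen probe sets than elsewhere was therefore not tested.

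Os.4449.1.S1_at had group means of 12.46 and 12.66 in M202 and 4.14 and 4.45 in M202(Sub1). Os.4449.1.S1_a_at of the same design cluster had 10.97 and 11.75 against 10.11 and 10.83, a difference of -0.86 and -0.92.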
